A study of Rattus norvegicus with 4 samples.

Results

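The genes described here belong to the signalling system of ciliary neurotrophic factor and the other cytokines that share the receptor subunit gp130. They are the ligands Cntf, Clcf1, Lif, Il6 and Il11, the receptor subunits Il6st, Lifr and Osmr, and the feedback inhibitor Socs3. Members were found by gene symbol alone, as the probe sets that the platform annotation pairs with exactly 1 of these 9 symbols. This gave 12 probe sets of 8 genes, out of 31042 probe sets that are no controls. Il6st has 4 probe sets, Lifr has 2 and each of the others has 1, while Osmr has none under this rule and was not analysed here. The signals come from RT4D6, a rat Schwannoma line derived from the glia of peripheral nerves. Cells were treated with the wild type Sox10 siRNA, which targets this transcription factor, or with a mutant Sox10 siRNA as control, and all were labelled 48 h. Each group has 2 arrays of the GeneChip Rat 230 2.0, replicates 1 and 2, and the study describes them as independent pairs of cell samples. All arrays are of 1 cell line and no untreated cells were analysed here.

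The cytokines of this family bind a receptor complex at the cell surface that contains gp130, the product of Il6st. CNTF, CLCF1 and LIF signal through gp130 joined to the LIF receptor, and of these CNTF and CLCF1 also bind an alpha subunit, the product of Cntfr. IL-6 and IL-11 first bind an alpha subunit of their own and then a pair of gp130 molecules. The complex activates JAK kinases, which phosphorylate STAT3 and other STAT factors, and STAT3 switches on Socs3, which in turn blocks the receptor. In peripheral nerve, CNTF is known as a product of myelinating Schwann cells that supports neurons, and the study cites Cntf as an established target of Sox10. LIF and IL-6 are known to be made by Schwann cells after nerve injury.

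The siRNA target itself differed as labelled. Sox10 had MAS5 signals of 163 and 335 with the wild type siRNA against 2873 and 2890 with the mutant siRNA. A MAS5 signal is the summary brightness of a probe set on a linear scale, and the median probe set had a signal between 101 and 110 on the 4 arrays. All 6 measured Schwann cell and glial markers were tested and lower with the wild type siRNA, and their summed signal was 1264 and 1647 against 16810 and 12190. Of all genes tested, 10.6% were lower. Sox10 is the siRNA target, and Ngfr and Erbb3 are among the genes that the study selected as lower on these same arrays. The count and the sum were thus partly fixed beforehand. Of 8 smooth muscle markers, 4 were bright enough to test and 2, Acta2 and Tagln, were higher, Acta2 not without mutant siRNA replicate 1 (adjusted p = 0.0808). Myh11, at 1.38, and Smtn, at -0.84, did not pass (adjusted p = 0.137 and 0.0633), and Smtn passed as lower with the replicate number as a block (adjusted p = 0.0127). The study recalls its earlier report that a Sox10 siRNA apparently turned RT4D6 cells into smooth muscle cells, with α-smooth muscle actin, the product of Acta2, up-regulated. Among the 8 markers here, 3 were lower with no overlap of the groups (Smtn, Des and Myocd) and 3 were higher (Acta2, Tagln and Myh11). Over all probe sets, 52.3% did not overlap, so these counts do not show that the list was split. Des and Myocd were too dim to test. The summed signal of those 8 was 23960 and 28710 with the wild type siRNA against 6643 and 11340 with the mutant siRNA, which is mostly Tagln (21242 and 22657 against 5482 and 9015), with Cnn1, Actg2, Des and Myocd below the array median on every array. In such bulk RNA, fewer cells that express a gene and less of its RNA per cell cannot be told apart.

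Promoter sequences are shown for Cntf, Il6 and Il11, the 3 member genes that passed the test described below, so that the letters upstream of each can be compared. They are the 250 bases before the RefSeq gene start in the GRCr8 assembly, 5′ to 3′ on the strand of the gene. The window of Cntf is chr1:219314536-219314785 on the minus strand, that of Il6 is chr4:5894576-5894825 on the minus strand and that of Il11 is chr1:78098372-78098621 on the plus strand. Capitals mark matches to 4 motifs searched on both strands: the Sox core ATTGT, read as ACAAT on the other strand, the AP-1 motif TGANTCA, the CRE motif TGACGTCA and the STAT motif TTCNNNGAA.
Cntf: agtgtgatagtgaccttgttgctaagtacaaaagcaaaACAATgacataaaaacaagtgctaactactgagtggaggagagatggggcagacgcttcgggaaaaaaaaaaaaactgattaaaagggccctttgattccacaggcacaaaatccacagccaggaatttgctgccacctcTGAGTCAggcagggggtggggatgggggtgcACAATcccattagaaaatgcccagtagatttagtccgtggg
Il6: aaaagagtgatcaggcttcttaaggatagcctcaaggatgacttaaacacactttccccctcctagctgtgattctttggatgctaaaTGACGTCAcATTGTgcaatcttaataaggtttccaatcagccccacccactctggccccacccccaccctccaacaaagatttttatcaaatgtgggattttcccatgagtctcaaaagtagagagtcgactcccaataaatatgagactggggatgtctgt
Il11: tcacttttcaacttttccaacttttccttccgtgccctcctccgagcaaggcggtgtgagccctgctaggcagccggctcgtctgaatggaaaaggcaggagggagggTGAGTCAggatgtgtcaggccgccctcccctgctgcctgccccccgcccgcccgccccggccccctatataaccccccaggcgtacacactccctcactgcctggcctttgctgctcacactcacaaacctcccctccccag

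The Cntf window held the Sox core at 212 and at 41 bases before the gene start and an AP-1 match at 72 bases. The Il6 window held a CRE match at 162 bases and, after a gap of 1 base, a Sox core at 153 bases. The Il11 window held an AP-1 match at 142 bases and no Sox core. No matches overlapped one another. Of 33469 rat promoter windows of this length, 30% held the Sox core, 6.34% the AP-1 motif, 1.59% the CRE motif and 7.67% the STAT motif. Of the 9 members, 7 had an entry among these promoters. Besides the genes shown, Osmr had an AP-1 match at 33 bases, and the windows of Il6st, Lifr and Socs3 held no match. Lif and Clcf1 were the members with no entry. A match of letters is a description of the window and was not tested for binding.

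Of the 12 member probe sets, 8 were bright enough to test, meaning that 2 or more arrays gave a signal no lower than the array median. They were tested with limma on log2 signals centred on the array median, with a threshold of 0.05 on the p adjusted by Benjamini-Hochberg over all 16125 probe sets tested. Cntf was lower with the wild type siRNA, and Il6 and Il11 were higher. The other 5 tested probe sets, 4 of Il6st and 1 of Socs3, did not pass. Over all probe sets tested, 12.1% were lower and 14.6% were higher, so that 1 lower and 2 higher of 8 members is no count from which anything particular to the members can be read. Il6 and Il11 were also tested only because both wild type siRNA arrays lay above the array median. Without any filter on dim signals, 3 of all 12 member probe sets passed, where 11.5% of all probe sets did. The signals of the groups, as deposited, did not overlap for 9 of the 12, and this was so for 52.3% of all probe sets.

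**Figure D1:**
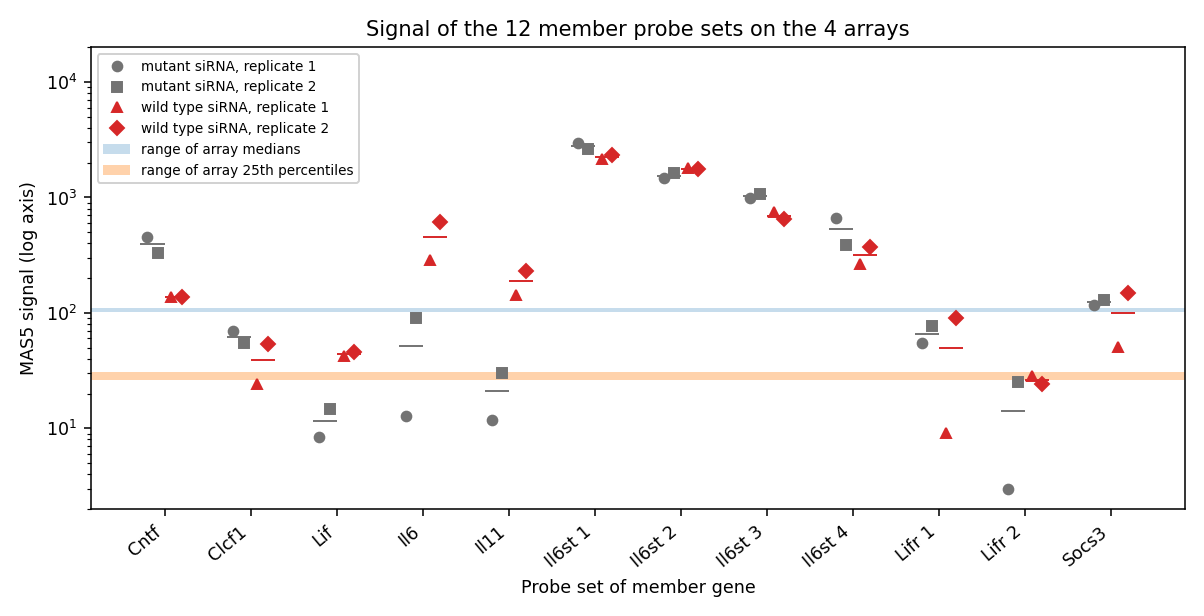
Signals (MAS5, log axis) of the 12 member probe sets on each of the 4 arrays. Grey points are the mutant siRNA arrays and red points the wild type siRNA arrays, horizontal lines are the mean of each group of 2, and the bands give the range of the array medians (blue) and of the array 25th percentiles (orange). Cntf lies lower in both red points, at 136 and 139 against 457 and 329, while Lif, Il6 and Il11 lie higher in both, and the 4 Il6st probe sets stay above the array median on all arrays.

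Among the ligands, Cntf encodes a cytokine without a classical secretion signal that acts on neurons and glia. It had signals of 136 and 139 with the wild type siRNA against 457 and 329 with the mutant siRNA. Both wild type siRNA arrays thus lay below both mutant siRNA arrays, and all 4 signals were above the array median. The mean was 137 ± 1.63 against 393 ± 90.8 (SD, n = 2 each). The log2 fold change was -1.42 ± 0.31 (standard error, limma adjusted p = 0.0135), a 2.67-fold decrease with a 95% confidence interval of -2.12 to -0.71 on the log2 scale. Of all probe sets tested, 6.74% had a lower log2 fold change. Within the pairs of arrays the log2 difference was -1.71 in replicate 1 and -1.12 in replicate 2. The call was lost without mutant siRNA replicate 1, the brighter of the control arrays, at a log2 fold change of -1.16 (adjusted p = 0.111).

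Cntf lies next to Zfp91, a gene of a zinc finger protein, in the RefSeq order of genes, so the probe sets of this neighbour were examined as well. Of 8 probe sets of Zfp91, 7 were tested, and 1 was lower, 1 was higher and 5 did not pass. The lower one had a log2 fold change of -0.67 (adjusted p = 0.0427) and the higher one of 0.75 (adjusted p = 0.0224). The eighth probe set was too dim to test, with signals of 3.90 and 18.8 against 42.7 and 88.2, lower on both wild type siRNA arrays. Clcf1 encodes a further ligand of the CNTF receptor and was too dim to test, with signals of 24.0 and 53.9 with the wild type siRNA against 69.2 and 54.6 with the mutant siRNA. Replicate 2 of the groups thus lay almost level, and the difference of the means came from replicate 1.

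The ligands Il6, Il11 and Lif had higher signals on both wild type siRNA arrays than on both mutant siRNA arrays. Il6 encodes the inflammatory cytokine that gives the family its name. Its signal was 287 and 615 with the wild type siRNA against 12.8 and 90.5 with the mutant siRNA. Mutant siRNA replicate 1 lay below the 25th percentile of its array, and the replicate 2 array was the brighter one in both groups. The mean was 451 ± 232 against 51.6 ± 54.9 (SD, n = 2 each). The log2 fold change was 3.71 ± 0.85 (standard error, limma adjusted p = 0.0161), and 0.143% of the probe sets tested had a higher one. Since 1 control signal was near background the size is uncertain, and with all signals raised to at least the 25th percentile of their array it was 3.16 (adjusted p = 0.00797), or 8.95-fold. With single arrays left out it ranged from 2.31 without mutant siRNA replicate 1 (adjusted p = 0.0335) to 5.10 without mutant siRNA replicate 2 (adjusted p = 0.00653). It was 3.13 without wild type siRNA replicate 2 (adjusted p = 0.0490) and 4.28 without wild type siRNA replicate 1 (adjusted p = 0.011). The call was lost in limma without the intensity trend (adjusted p = 0.0604), and the methods' t-test on its own log2 values gave an unadjusted p of 0.133.

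Il11 encodes interleukin 11, a cytokine known from mesenchymal and connective tissue cells. Its signal was 144 and 230 with the wild type siRNA against 11.7 and 30 with the mutant siRNA. Both mutant siRNA signals lay below the 25th percentile of their array, and the groups did not overlap. The mean was 187 ± 61.0 against 20.8 ± 12.9 (SD, n = 2 each). The log2 fold change was 3.36 ± 0.84 (standard error, limma adjusted p = 0.0225), and 0.211% of the probe sets tested had a higher one. With low signals raised in the same way it was 2.73 (adjusted p = 0.00996), a 6.62-fold increase. The call was lost without wild type siRNA replicate 1 (3.73, adjusted p = 0.0837) and without wild type siRNA replicate 2 (2.99, adjusted p = 0.129).

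Lif, leukemia inhibitory factor, stayed below the array median on every array and was not tested. Its signal was 42.4 and 46.0 with the wild type siRNA against 8.40 and 14.6 with the mutant siRNA, both of the latter below the 25th percentile of their array. The log2 difference was 2.37 in replicate 1 and 1.78 in replicate 2, in the same direction as for Il6 and Il11. In the fit without a filter it was 2.07 and did not pass (adjusted p = 0.3 from limma), and with signals raised to the 25th percentile it shrank to 0.68 (adjusted p = 0.173). Neither a difference of Lif between the groups nor its size is therefore established.

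Markers were also read of cell types other than Schwann cells that are known to make IL-6 in nerve. All arrays are of the RT4D6 line and not of nerve tissue. Of 8 macrophage markers, 1 was bright enough to test, Cd14, and it did not pass, with signals of 778 and 639 with the wild type siRNA against 453 and 695. The other 7, Cd68, Ptprc, Aif1, Itgam, Csf1r, C1qa and Cd163, were below the array median on all 4 arrays in their brightest probe set, Itgam below the 25th percentile. The summed signal of the 8 was 1057 and 916 with the wild type siRNA against 598 and 980 with the mutant siRNA, and the groups overlapped. Of 6 fibroblast markers, Col1a1 and Col3a1 were tested and neither passed, and Dcn and Lum were below the 25th percentile on all arrays. With the replicate number as a block in limma, Col3a1 passed as higher (adjusted p = 0.0277), as did the brighter probe set of Col1a1 (adjusted p = 0.024). The other tested probe set of Col1a1 did not (adjusted p = 0.92). The summed signal of the 6 was 2021 and 3420 against 1713 and 1593, and the groups did not overlap. Of 4 measured endothelial markers, Tek was tested and did not pass, and the summed signal was 349 and 231 against 151 and 166, also without overlap. In both of these lists, 3 markers were higher without overlap in their brightest probe set and none was lower. Over all probe sets, 52.3% did not overlap in either direction. Of the smooth muscle markers given above, Tagln and Acta2 were called higher, like Il6 and Il11. Smtn, Des and Myocd were at lower signals but did not pass or were too dim to test. Any relation of these marker signals to Il6 and Il11 was not tested.

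**Figure D2:**
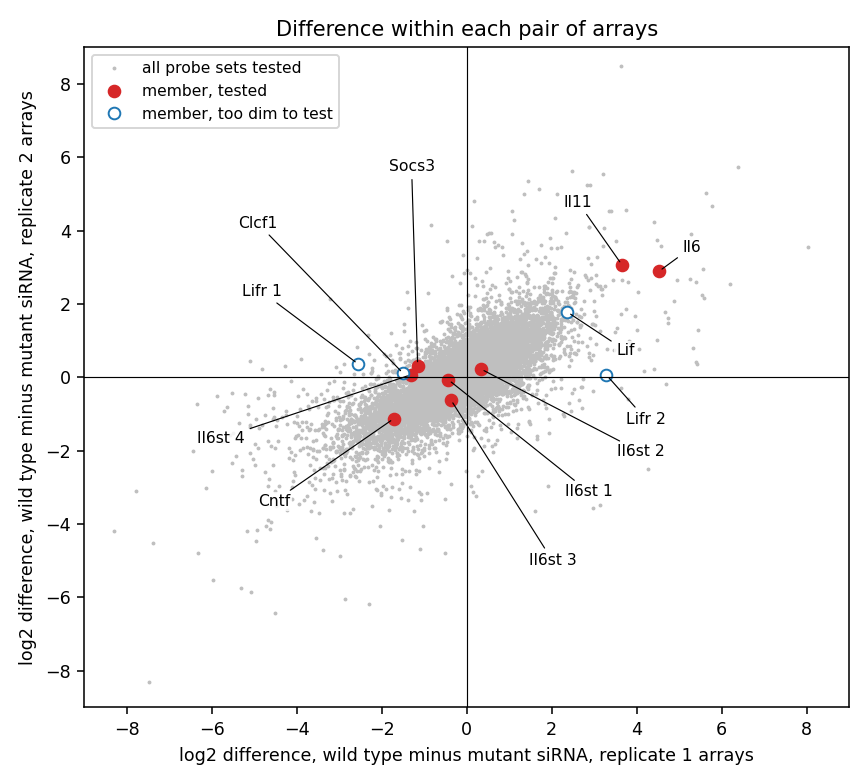
Log2 difference between wild type and mutant siRNA, after centring on the array median, on the replicate 1 arrays (x axis) and on the replicate 2 arrays (y axis). Grey points are the 16125 probe sets tested, filled red points are the 8 tested member probe sets and open blue points the 4 that were too dim to test. Il6 (4.52 and 2.89), Il11 (3.65 and 3.06) and Lif (2.37 and 1.78) lie above 0 in both pairs and Cntf (-1.71 and -1.12) below 0 in both, whereas Socs3, Clcf1, the fourth Il6st probe set and the first Lifr probe set change sign between the pairs.

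The shared receptor subunit gp130 was measured by 4 probe sets of Il6st, which lay between the 64.5th and the 94.7th percentile of their arrays, and none passed the test. The first had signals of 2140 and 2330 with the wild type siRNA against 2966 and 2652 with the mutant siRNA, a log2 fold change of -0.25 with a 95% confidence interval of -0.66 to 0.16. The second had signals of 1807 and 1748 against 1478 and 1622, a log2 fold change of 0.28 with an interval of -0.13 to 0.69. These probe sets thus lay on opposite sides of 0. The third had signals of 744 and 650 against 990 and 1080 and came nearest to the threshold, at -0.49 (adjusted p = 0.102 from limma, interval -0.95 to -0.03 before adjustment). The fourth had signals of 264 and 375 against 669 and 389, at -0.62 with an interval of -1.38 to 0.14, and mutant siRNA replicate 1 was the array that stood apart. The intervals of the first 3 all stay within 1 log2 unit of 0.

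Lifr, the LIF receptor subunit that CNTF and LIF need beside gp130, was too dim to test in either probe set. The first had signals of 9.10 and 90.9 with the wild type siRNA against 54.6 and 77.2 with the mutant siRNA. The second had signals of 28.6 and 24.1 against 3 and 25.1, so that in both probe sets 1 array set the difference of the means and the groups overlapped. Of 6 further receptor subunits listed, 4 had a probe set and 1, Il6r, was bright enough to test. Il6r encodes the alpha subunit to which IL-6 binds first. It had signals of 112 and 130 with the wild type siRNA against 460 and 448 with the mutant siRNA. The replicates lay close together and the groups far apart. Its log2 fold change was -1.84 ± 0.29 (standard error, limma adjusted p = 0.00458), and it passed with each array left out in turn. Il6r and its ligand Il6 thus moved in opposite directions.

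The remaining receptor subunits were dim. Cntfr, the alpha subunit for CNTF, had signals of 10.2 and 54.7 against 71.4 and 189 in one probe set and of 73.0 and 70.6 against 48.6 and 35 in another, which differ in direction. Il11ra1, the alpha subunit for IL-11, had signals of 88.2 and 88.1 with the wild type siRNA against 59.5 and 50.7 with the mutant siRNA. All of these lay below the array median with the exception of 1 Cntfr signal, that of 189. The 4 other ligands of the family with a probe set, Osm, Ctf1, Ebi3 and Il12a, were all too dim to test. Ctf1, the gene of cardiotrophin 1, had signals of 52.7 and 62.0 against 39.1 and 129.

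Downstream of the receptor, genes are counted by their brightest tested probe set, for which 10.6% of all 9165 genes tested were lower and 17.3% were higher. Of 8 tested JAK kinases and STAT factors, 2 were higher and none was lower, and 6 did not pass. Stat2, a factor of interferon signalling, had signals of 1007 and 687 with the wild type siRNA against 300 and 210 with the mutant siRNA, a log2 fold change of 1.81 ± 0.29 (standard error, limma adjusted p = 0.00466), while its second probe set was at 0.37 (adjusted p = 0.437). Stat5b, a factor of growth hormone and cytokine signalling, had signals of 484 and 406 against 192 and 189, at 1.30 ± 0.26 (standard error, limma adjusted p = 0.0101). Stat3, the main factor of gp130 signalling, did not pass in its brighter probe set, with signals of 650 and 1306 against 702 and 406 (0.87, adjusted p = 0.126). There it ranged from 0.34 without wild type siRNA replicate 2 to 1.40 without wild type siRNA replicate 1. In a second probe set its signals were 339 and 404 against 191 and 205, and there it was higher, at 0.98 (adjusted p = 0.0314). That call was lost without the filter (adjusted p = 0.0639). It was also lost when mutant siRNA replicate 1, mutant siRNA replicate 2 or wild type siRNA replicate 2 was left out. Jak1, the kinase bound to gp130, was at 0.46 (adjusted p = 0.0739) in its brighter probe set, which passed with the replicate number as a block (adjusted p = 0.0299). Its second probe set was higher, at 0.65 (adjusted p = 0.0419), but that call was lost with each of the 4 arrays left out (adjusted p between 0.0633 and 0.208). Jak2 was at 0.01 (adjusted p = 0.981). The median of the 8 was 0.50, beside 0.20 for all genes tested.

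Socs3, the feedback inhibitor induced by STAT3, had signals of 51.0 and 150 with the wild type siRNA against 116 and 130 with the mutant siRNA. The groups overlapped, with the wild type siRNA arrays at both ends. Its log2 fold change was -0.42 ± 0.61 (standard error, limma adjusted p = 0.641), with an interval of -1.82 to 0.98, and without wild type siRNA replicate 1 it turned to 0.39. Neither a rise nor a fall of Socs3 was detectable with these arrays. Of 12 other tested inhibitors of this signalling, 3 were higher, none was lower and 9 did not pass in their brightest tested probe set. Among the 9, Ptpn1 lay at -0.74 (limma adjusted p = 0.0551) and passed as lower with the replicate number as a block (adjusted p = 0.0358). Its other probe set was lower, at -0.88 (adjusted p = 0.0371), but did not pass without the filter (adjusted p = 0.0751). With single arrays left out it lay between -0.98 and -0.78, and the call did not hold in each of these fits. Sh2b3, an adaptor that restrains JAK2, was at 1.64 ± 0.22 (standard error, limma adjusted p = 0.00279), and Socs6, a member of the same family as Socs3, at 1.45 ± 0.21 (standard error, limma adjusted p = 0.00358). Pias3, which binds STAT3, was at 0.85 ± 0.21 (standard error, limma adjusted p = 0.0219), which no longer passed when mutant siRNA replicate 1 (adjusted p = 0.0860), mutant siRNA replicate 2 (adjusted p = 0.0988) or wild type siRNA replicate 2 (adjusted p = 0.0650) was left out. Ptpn11, a phosphatase that binds gp130, lay at -0.45 in its brighter probe set (adjusted p = 0.13) but at 1.03 in another (adjusted p = 0.0261), a call that was lost with each of the 4 arrays left out (adjusted p between 0.0543 and 0.106). The median of the 12 was -0.07.

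Genes known as targets of STAT3 or gp130 signalling did not move one way. Of 19 tested, 4 were lower, 3 were higher and 12 did not pass, with a median log2 fold change of 0.23. Icam1, a cell adhesion molecule, had signals of 682 and 773 with the wild type siRNA against 189 and 236 with the mutant siRNA, a log2 fold change of 1.86 ± 0.25 (standard error, limma adjusted p = 0.00278). Junb, a subunit of AP-1, was at 1.14 ± 0.23 (standard error, limma adjusted p = 0.0103), which no longer passed when mutant siRNA replicate 1 was left out (adjusted p = 0.0647). Vegfa, the vascular growth factor, and Gfap, the intermediate filament of glia, were lower, at -2.68 (adjusted p = 0.00185) and -2.36 (adjusted p = 0.00521), the latter lost without mutant siRNA replicate 1 (adjusted p = 0.0523). Both belong to the genes that the study selected as strongly lower on these same arrays, and Gfap is a glial marker as well. Fos, at 1.20, and Bcl6, at 1.15, did not pass (adjusted p = 0.0673 and 0.0633), but both passed as higher with the replicate number as a block (adjusted p = 0.0105 and 0.0256). Cebpd, a factor of the acute phase response, gave unlike values, with 0.17 in its brighter tested probe set (adjusted p = 0.721) and 1.88 in another (adjusted p = 0.0282). The latter was tested only because of its wild type siRNA signals, 198 and 190 against 72.0 and 43.0. It did not pass without the filter (adjusted p = 0.0535), nor without wild type siRNA replicate 1 (adjusted p = 0.108), wild type siRNA replicate 2 (adjusted p = 0.0691) or mutant siRNA replicate 2 (adjusted p = 0.0932).

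**Figure D3:**
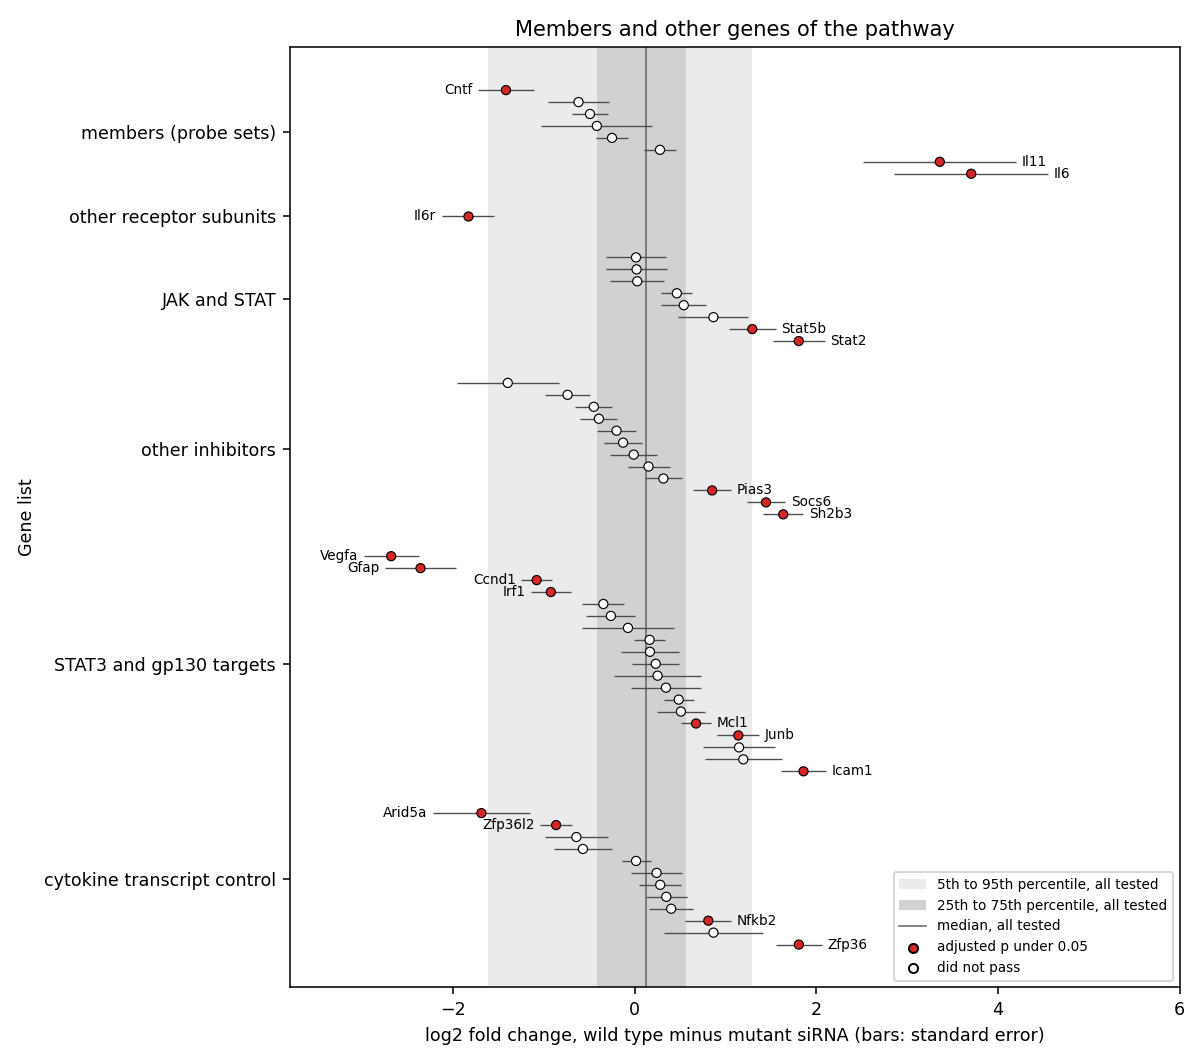
Log2 fold change, wild type minus mutant siRNA, of the 8 tested member probe sets and of the tested genes of 5 further lists (1 probe set per gene), with the standard error from limma as bars. Red points passed at an adjusted p under 0.05 and carry their gene name, white points did not pass, and the grey bands and line give the percentiles (-1.61 to 1.29 for the 5th to the 95th) and the median (0.13) of all probe sets tested. Il6 and Il11 lie far to the right of the outer band, with the longest bars among the named points, and the STAT3 and gp130 targets spread to both sides.

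Genes that act on cytokine transcripts, by transcription or by RNA stability, are the last list. Of 12 tested, 2 were higher, 2 were lower and 8 did not pass. Zfp36, which marks cytokine mRNAs for decay, had signals of 978 and 659 with the wild type siRNA against 240 and 245 with the mutant siRNA, a log2 fold change of 1.81 ± 0.26 (standard error, limma adjusted p = 0.00329). Its relative Zfp36l2 was at -0.87 ± 0.17 (standard error, limma adjusted p = 0.0102) in its brightest probe set. That call was lost when mutant siRNA replicate 1 was left out. The other tested probe sets of Zfp36l2, at -1.96 (adjusted p = 0.0674) and -1.05 (adjusted p = 0.209), did not pass. Arid5a, known to stabilise Il6 mRNA, was at -1.69 ± 0.53 (standard error, limma adjusted p = 0.0483), and Nfkb2, an NF-kB subunit, at 0.81 ± 0.25 (standard error, limma adjusted p = 0.0456). Arid5a was tested only because of its mutant siRNA signals, 51.7 and 48.4 against 138 and 211, and did not pass without the filter (adjusted p = 0.0946). A second tested probe set of Arid5a, at -1.89, did not pass (adjusted p = 0.0863). The calls of Arid5a and Nfkb2 were lost under other scalings, that of Arid5a after quantile normalization (adjusted p = 0.0534) and that of Nfkb2 with the signals as deposited (adjusted p = 0.0641). Arid5a also lost it without mutant siRNA replicate 1 (adjusted p = 0.122), mutant siRNA replicate 2 (adjusted p = 0.3) or wild type siRNA replicate 1 (adjusted p = 0.0695), and Nfkb2 with each of the 4 arrays left out (adjusted p between 0.0967 and 0.153). Il1b and Tnf, cytokines that induce Il6, were too dim to test, Il1b with signals of 45.8 and 17.6 against 9.60 and 5.80, higher on both wild type siRNA arrays. Tnf was lower on both in one probe set, at 5.40 and 3.70 against 38.9 and 85.0, and overlapped in another, at 28.5 and 49.8 against 45.9 and 7.80.

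The probe sets whose pattern over the 4 arrays lay nearest to each called member were sought by the root mean square difference of their log2 signals, each taken relative to its mutant siRNA mean. For Cntf these were Pacsin2 (0.0252), Ptpre (0.0305) and E2f2 (0.0464), whose log2 fold changes lay between -1.48 and -1.44. For Il11 they were Nexn (0.222), Rgs2 (0.247) and Lpp (0.455). For Il6 the nearest, Dbndd1 (0.483), Kif3b (0.519) and Tg (0.546), were less alike than the nearest of Cntf. With 4 arrays in 2 groups such likeness is a description and rests mostly on the size of the difference between the groups.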

How the data were processed

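The authors deposited intensity values, 1 MAS5 signal per probe set and array on a linear scale, with MAS5 named in the submitters' processing notes without a version. The mean of each array without its lowest and highest 2% was 500.2, so the arrays were already scaled to each other by the authors. Groups and replicate numbers came from the sample titles. Gene symbols came from the platform annotation, in which 20826 of 31042 probe sets that are no controls have a single symbol. Promoter windows came from RefSeq (GRCr8) and were searched with Python 3.11.15. Raw image files were not used here, and RT-PCR, binding and reporter assays were not analysed here.

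The median of each array was subtracted from its log2 signals, after the median normalization that Methods name. Probe sets with 2 or more signals no lower than the array median, 16125 in all, were fitted with limma 3.58.1 in R 4.3.3 (lmFit, eBayes with an intensity trend), and p-values were adjusted by Benjamini-Hochberg over all of them. A log2 fold change is wild type minus mutant siRNA. The median over all probe sets tested was 0.13, against 0.05 with signals as deposited and 0.08 after quantile normalization. For counts of genes, the tested probe set with the highest mean signal stood for each gene with a single symbol. All probe sets of members were named, as were up to 4 called genes with the largest change of each list. Others are named for being dim, not passing or differing between probe sets, after their values were seen. Zfp91 was added as a neighbour after the values of Cntf were seen. The members and lists were chosen with earlier results of these data known. The script was tested on simulated data. The methods' t-test was taken as unpaired with equal variances on log2 values. Alternatives were other scalings, treatments of low signals, filters, variance models, the replicate block and each array left out. The fits without a filter that also raise low signals or carry the block were added after the data were seen.

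The submitters' design and the study describe the arrays as pairs of cell samples. Arrays that share a number deviated from their group means with a correlation of 0.141 over the probe sets tested, so the replicate number was used as a block in an alternative. The number of arrays limits the precision.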

Additional observations from a re-analysis of the deposited data

How the results depend on the processing

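Cntf was lower, and Il6 and Il11 were higher, in sign under every alternative that tested them, each array left out included. With the filter that asks for 4 signals no lower than the array median, 0 member probe sets were higher in limma, since that filter removes Il6 and Il11. Without the intensity trend 1 was higher, Il11. The methods' t-test called 2 member probe sets lower and 2 higher without adjustment, the second lower one and one of the higher ones being probe sets of Il6st in place of Il6, and 8 and 10 pathway genes. After Benjamini-Hochberg it called 0 of each, and the cause was not tested. With each array left out in turn, between 0 and 1 member probe sets were lower, between 1 and 2 higher, and between 3 and 10 pathway genes lower (7 in the main setting). The fall to 3 came without mutant siRNA replicate 1. These fits assume that the lone array of a group varies like the other group. Socs3 ranged from -1.22 (without wild type siRNA replicate 2) to 0.39 (without wild type siRNA replicate 1), a change of sign, and passed in neither. With the replicate number as a block, 1 member probe set was lower and 2 were higher, as without it, and 8 pathway genes were lower and 14 higher, against 7 and 10, the added ones being Ptpn1 (lower) and Jak1, Fos, Bcl6 and Timp1. In the fit without a filter and with signals raised to the 25th percentile, which was added later, the adjusted p of Cntf was 0.0599. Signals below the 25th percentile of the array, as for Lif, Lifr and the mutant siRNA arrays of Il6 and Il11, limit how well the size of a change is known.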
